A study of Rattus norvegicus with 48 samples.

Results

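Ampd3 encodes AMP deaminase 3, an enzyme of purine nucleotide metabolism, and its row, ENSRNOG00000018262, is 1 of the 31998 genes listed in the deposited count matrix and 1 of the 16960 genes kept for testing. It was chosen by the deposited counts themselves, because they were far higher in immobilized plantaris than in control plantaris, while soleus differed little. The values of that contrast and of its difference between the muscles or the lines are therefore a description without a p-value. The same holds for the lines in immobilized muscle.

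AMP deaminases remove the amino group of AMP, which yields IMP and ammonia. The reaction is the entry to the purine nucleotide cycle, in which IMP is returned to AMP, and it competes for AMP with the 5'-nucleotidases and with the activation of AMP-activated protein kinase. Skeletal muscle fibres are known mainly for the Ampd1 isoform, while the product of Ampd3 is known as the isoform of red blood cells.

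The plantaris, a fast muscle, and the soleus, a slow muscle, were taken from female rats aged 14 months, of generation 19 of selective breeding for a low (LRT) or a high (HRT) response to endurance training. The limb of the HI rats was held in a cast for 3 d with the foot in plantar flexion, and the CTRL rats had no cast. Every rat, CTRL included, had been through a treadmill training period earlier, was anaesthetized, and was given puromycin 30 min before the muscles were removed. Muscle, line and treatment made 8 groups with 6 libraries in each, 48 in all, with totals of 26.8 to 36.4 M counts. A library is the RNA of a whole muscle sample, so fewer cells of a type and less RNA per cell cannot be told apart.

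Markers of the muscle types separated the muscles as labelled where they could be read. The 7 of 15 fast fibre markers with a paired identifier, Mylpf, Pvalb, Atp2a1, Casq1, Eno3, Pfkm and Pgam2, summed to between 22128.6 and 34847.1 CPM (counts per 1 M counts of the library, after TMM scaling of the library sizes) in plantaris CTRL and to between 2353.3 and 5647.2 CPM in soleus CTRL. Casq2, the slow calsequestrin and the only paired slow fibre marker of 12, was at most 71.6 CPM in plantaris CTRL and at least 383.7 CPM in soleus CTRL.

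Without a cast, Ampd3 was about 8 times lower in plantaris than in soleus in both lines. In LRT CTRL rats the lowest, median and highest plantaris values were 7.37, 10.2 and 18.5 CPM, and those of soleus were 73.4, 84.5 and 118.0 CPM. In HRT CTRL rats plantaris had 13.1, 15.9 and 21.5 CPM, and soleus had 78.4, 132.1 and 179.9 CPM. The ranges of the muscles did not overlap in either line, and the ratio of the medians was 8.28 in LRT and 8.31 in HRT.

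The difference of plantaris minus soleus in CTRL was -3.03 on the log2 scale for LRT rats (SE 0.66) and -3.07 for HRT rats (SE 0.64). These CTRL libraries are the baselines of the rises by which the gene was chosen, and a low plantaris baseline is favoured by that choice. The difference is therefore a description without a p-value. Lower expression in plantaris was called (edgeR) for 15.6% of the genes tested in LRT and for 19.9% in HRT, and each plantaris library was below each soleus library for 10.7% and 11% of genes. Leaving out any library of these groups kept the difference of Ampd3 between -3.21 and -2.90.

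The lines were compared next in CTRL, a contrast in which no limb was cast. In plantaris, 5 of the 6 LRT CTRL libraries lay below every HRT CTRL library, and the highest LRT library, replicate 5, lay above all of HRT but replicate 4. LRT minus HRT was -0.51 in plantaris (SE 0.60, adjusted p = 0.83, edgeR) and -0.54 in soleus (SE 0.59, adjusted p = 0.71, edgeR), where 2 of the 6 LRT libraries lay below every HRT library. At an adjusted p under 0.05, 0.525% of genes differed between the lines in plantaris CTRL and 1.45% in soleus CTRL.

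An exact two-sided permutation test of log2 CPM, which takes the spread of Ampd3 in these libraries alone, gave p = 0.032 in plantaris CTRL and p = 0.037 in soleus CTRL. Adjusted over the 4 line comparisons of Ampd3, both became 0.074 and neither passed. Those in HI entered this adjustment, and their p-values are not given because the gene was chosen by those libraries. The differences of the mean log2 CPM were -0.54 in plantaris and -0.53 in soleus. These CTRL libraries are also the baselines of the rises by which the gene was chosen. The p-values of the lines in CTRL, by either test, are therefore not independent of that choice.

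**Figure D1:**
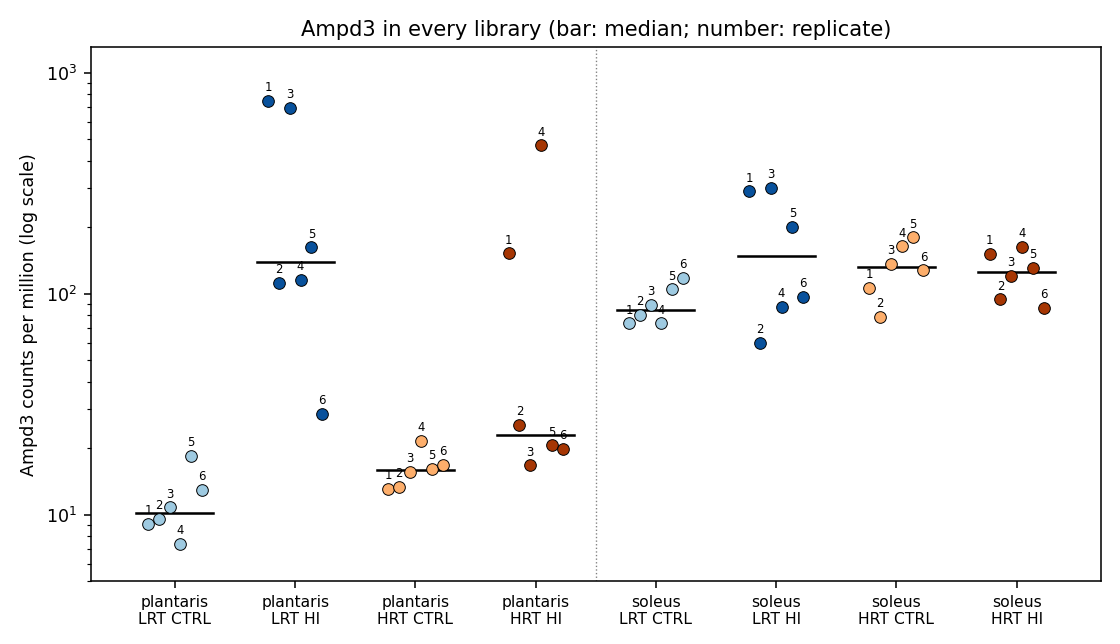
Ampd3 CPM in each of the 48 libraries on a log axis, by muscle, line and treatment (6 libraries a group, numbered by replicate; bars are medians). The CTRL plantaris libraries lie between 7.37 and 21.5 CPM, below every soleus library, and the HI plantaris libraries spread from 16.7 to 744.0 CPM.

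In the immobilized plantaris of LRT, Ampd3 was higher than in every control library, and the size of the difference varied widely between rats. The lowest, median and highest values were 28.6, 138.7 and 744.0 CPM in HI, against 7.37, 10.2 and 18.5 CPM in CTRL. All 6 HI libraries lay above all 6 CTRL libraries, a pattern that 4.69% of the genes tested showed in this comparison and that the choice of the gene used.

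Replicates 1 and 3 reached 744.0 and 694.6 CPM. Replicates 2, 4 and 5 lay between 111.7 and 161.9 CPM, and replicate 6 was lowest with 28.6 CPM. A pair of libraries thus stood far above the rest, 3 stood in the middle, and 1 stood just above the controls.

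The log2 fold change of HI minus CTRL in LRT plantaris was 4.76 (SE 0.69), which ranked 8 from the highest among 16960 genes. The ratio of the medians was 13.6. Without replicate 1 of HI the fold change was 4.26, and without replicate 6 it was 4.99.

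In HRT plantaris the difference rested on fewer rats. The lowest, median and highest values were 16.7, 23.1 and 468.9 CPM in HI, against 13.1, 15.9 and 21.5 CPM in CTRL. Replicate 4 was at 468.9 CPM and replicate 1 at 152.2 CPM, replicate 2 at 25.5 CPM was also above every control, and the remaining 3 lay within the control range. In this comparison 3.27% of genes had each HI library above each CTRL library, and Ampd3 was not among them.

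The log2 fold change in HRT plantaris was 2.82 (SE 0.66) and ranked 16 from the highest, whereas the ratio of the medians was 1.45. The fitted value follows the mean of the counts, which was 117.3 ± 180.1 CPM in HI (SD, n = 6), and it dropped to 1.55 without replicate 4. The size of the HRT value therefore rests on that library.

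The spread itself set Ampd3 apart from most genes in these libraries. The SD of log2 CPM was 1.78 in LRT HI plantaris and 1.99 in HRT HI plantaris, against 0.46 and 0.26 in the matching CTRL groups. Only 0.572% of genes had a larger SD in LRT HI plantaris and 0.342% in HRT HI plantaris, while 15.7% and 32.5% did in the CTRL groups. These shares describe the libraries from which the gene was picked.

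Soleus showed smaller differences. In LRT soleus the lowest, median and highest values were 60.1, 148.7 and 301.5 CPM in HI, against 73.4, 84.5 and 118.0 CPM in CTRL. Replicates 1, 3 and 5 of HI lay above every control, replicate 2 lay below every control, and the groups overlapped. The log2 fold change was 0.96 (SE 0.59), and 2.51% of genes had a higher one.

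In HRT soleus the HI libraries had 86.5, 125.4 and 162.8 CPM, inside the control range of 78.4 to 179.9 CPM. No HI library lay above or below all controls. The log2 fold change was -0.05 (SE 0.60), near the middle of the genes tested, of which 58% had a higher one.

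The share of genes with each HI library above each CTRL library was 1.79% in LRT soleus and 2.25% in HRT soleus. Set side by side, the rise in plantaris minus that in soleus was 3.80 in LRT (SE 0.86) and 2.87 in HRT (SE 0.91). Both are descriptions, since this difference is what the gene was picked for. The HRT value was 1.64 without plantaris HI replicate 4. With the rat, read from the replicate number, as a block, the values were 3.27 in LRT and 1.49 in HRT.

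In HI the medians of plantaris and soleus were 138.7 and 148.7 CPM in LRT and 23.1 and 125.4 CPM in HRT. The fitted value of plantaris minus soleus was 0.77 in LRT HI (SE 0.65) and -0.19 in HRT HI (SE 0.74), where the mean of plantaris is carried by replicate 4 at 468.9 CPM. The HRT value was -1.39 without that library, -1.36 with limma-voom and -1.55 with the rat as a block, alternatives chosen after the data were seen, and the LRT value was 0.26 without plantaris HI replicate 1, 0.27 with limma-voom and 0.18 with the rat as a block. The ranges overlapped in both lines. Ordered by median from the lowest, the 8 groups were plantaris LRT CTRL (10.2 CPM), plantaris HRT CTRL (15.9), plantaris HRT HI (23.1), soleus LRT CTRL (84.5), soleus HRT HI (125.4), soleus HRT CTRL (132.1), plantaris LRT HI (138.7) and soleus LRT HI (148.7). Neighbours in this order overlapped in every case.

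The lines were then compared in the cast limb. In plantaris HI, replicates 1 and 3 of LRT were above every HRT library, and no LRT library was below all of HRT. LRT minus HRT was 1.44 (SE 0.61), in a comparison where 2.42% of genes were called (edgeR). These libraries are those by which the gene was chosen, so the difference is a description without a p-value. Leaving out HRT HI replicate 4 raised the difference to 2.72, and leaving out LRT HI replicate 1 lowered it to 0.96.

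In soleus HI, LRT minus HRT was 0.47 (SE 0.58), likewise a description, where 12.2% of genes were called (edgeR). The LRT libraries lay on both sides, with 3 of them above every HRT library and 1 below every HRT library.

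DELTA, the response of LRT minus the response of HRT, was 1.94 for Ampd3 in plantaris (SE 0.87). It is a difference of the rises by which the gene was chosen, so it is a description without a p-value. The edgeR test called 0 genes for plantaris DELTA, 0% of those tested, with 1060 genes (6.25%) at an unadjusted p under 0.05, and limma-voom called 2 and DESeq2 0. In soleus DELTA was 1.01 (SE 0.83), also a description. There edgeR called 5 genes (0.0295%), limma-voom 5 and DESeq2 31. Without plantaris HRT HI replicate 4 the plantaris value was 3.21. Ampd3 was not among the genes called for DELTA in either muscle by any of these tools. A difference between the lines in its response was therefore not shown.

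The libraries of both muscles carry replicate numbers, and libraries with the same number can be set side by side, although the labels do not state that a number marks 1 rat. In CTRL the plantaris value was between 0.0897 and 0.177 of the soleus value with the same number. In LRT HI the ratio ran from 0.295 to 2.56, with 4 of 6 above 1, and in HRT HI from 0.139 to 2.88, with 2 of 6 above 1. In LRT HI, replicate 1 (744.0 and 290.3 CPM) and replicate 3 (694.6 and 301.5 CPM) were the highest in both muscles. HRT HI replicate 4 (468.9 and 162.8 CPM) was the highest of its group in both. Its soleus value lay within the HRT CTRL range of 78.4 to 179.9 CPM. LRT HI replicate 2 went the other way, at 111.7 CPM in plantaris, above every control, and 60.1 CPM in soleus, below every control.

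**Figure D2:**
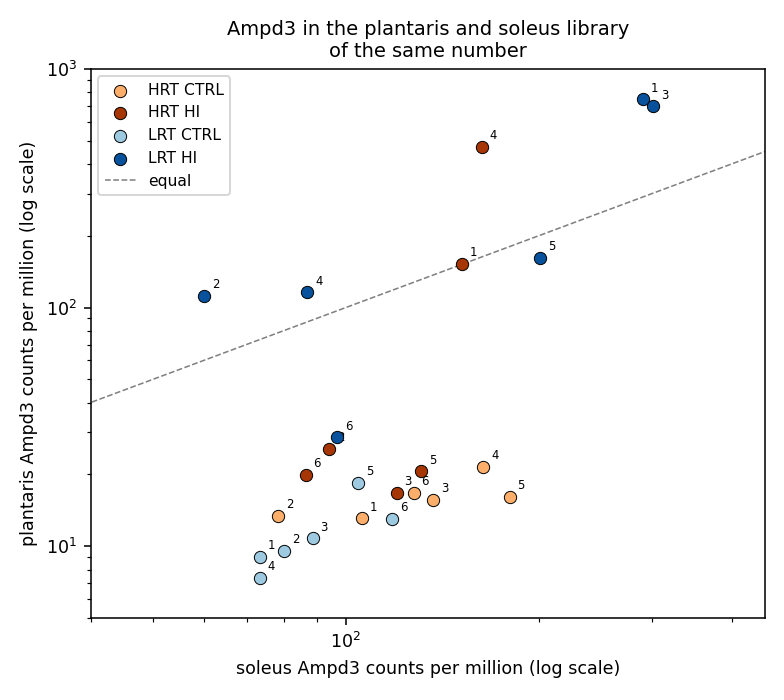
Ampd3 CPM in the plantaris library (vertical, log axis) against the soleus library of the same number (horizontal, log axis), coloured by line and treatment, with a dashed line where the values are equal. All 12 CTRL points lie far below the line, at ratios of at most 0.177, and 6 of the 12 HI points lie above it.

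Deviations of log2 CPM from the group means were correlated between the muscles, with permutation within line. In CTRL Pearson's r was 0.69 (n = 12, permutation p = 0.0047, adjusted over the 2 treatments 0.0079) and Spearman's rho was 0.81 (permutation p = 0.0025, adjusted 0.0049), and r was 0.79 without the 2 numbers farthest from the median (permutation p = 0.012). In HI r was 0.69 (n = 12, permutation p = 0.0079, adjusted 0.0079) and rho was 0.66 (permutation p = 0.0077, adjusted 0.0077). HI and CTRL libraries both took part in the choice of the gene. The p-values of this relation are therefore a description and not independent support.

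Without the 2 farthest numbers the HI value was 0.64 (n = 10, permutation p = 0.07), which did not pass. Within a line no relation of Pearson's r passed, with r from 0.73 to 0.83 and exact permutation p from 0.053 to 0.072 at n = 6, although Spearman's rho of 0.94 in LRT CTRL had an exact permutation p of 0.017. Over all genes the median r was 0.12 in CTRL and 0.34 in HI, and 3.85% and 16% of genes had an r at least as high as Ampd3. Same-numbered HI libraries thus moved together in many genes.

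The other genes of AMP metabolism were read from lists of 51 symbols, of which 6, Ampd3 included, could be paired with an identifier, and all 6 were tested. The pairing comes from tables of genes that differed in these samples, so the 5 other members are not independent evidence of a direction. Ampd1, Ampd2 and the enzymes that return IMP to AMP were not analysed here. In LRT plantaris 4 of the 5 fell and 0 rose (edgeR, 13.6% of all genes fell and 15.1% rose). In HRT plantaris 3 fell and 0 rose, where 5.85% of all genes fell and 5.11% rose. In LRT soleus 2 fell and 1 rose, against 6.58% and 7.36% of all genes, and in HRT soleus 0 fell and 1 rose, against 8.23% and 7.95%. Each HI library lay below each CTRL library for 5.74% of genes in LRT plantaris and 5.4% in HRT plantaris, and for 3 of the 5 (Ak1, Ckmt2 and Gamt) and 3 of the 5 (Nt5c1a, Ckmt2 and Gamt).

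Nt5c1a encodes the cytosolic 5'-nucleotidase of muscle, which removes the phosphate of AMP and so uses the substrate of AMP deaminase. In LRT plantaris its lowest, median and highest values were 5.78, 18.1 and 23.4 CPM in HI and 21.9, 37.8 and 45.2 CPM in CTRL, with 4 of 6 HI libraries below every control. It fell by 1.20 on the log2 scale (SE 0.24, adjusted p = 2.2e-04, edgeR).

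In HRT plantaris all 6 HI libraries of Nt5c1a, between 9.94 and 25.4 CPM, were below the controls, between 26.9 and 37.7 CPM. It fell by 0.78 (SE 0.23, adjusted p = 0.026, edgeR). That call was lost without HI replicate 4 (adjusted p = 0.085), HI replicate 1 (0.051) or CTRL replicate 6 (0.059), and with plantaris fitted alone (0.081). In soleus the changes were -0.17 in LRT and 0.03 in HRT, and neither passed.

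Ak1 encodes adenylate kinase 1, which interconverts ATP, ADP and AMP. In LRT plantaris all 6 HI libraries, between 130.0 and 429.2 CPM, lay below the controls, between 436.7 and 691.6 CPM, and Ak1 fell by 1.06 (SE 0.26, adjusted p = 0.0022, edgeR). In HRT plantaris the change was -0.30 (adjusted p = 0.49, edgeR), with 2 of 6 HI libraries below every control. In soleus the values were 0.42 in LRT and 0.49 in HRT, and neither passed.

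Of the 7 phosphocreatine symbols 2 were paired, Ckmt2 and Gamt. Ckmt2, the mitochondrial creatine kinase of muscle, fell by 1.36 in LRT plantaris (adjusted p = 1.7e-05, edgeR) and by 1.15 in HRT plantaris (adjusted p = 6.5e-04, edgeR), and in both lines all 6 HI libraries lay below all controls. In soleus it fell by 0.63 in LRT (adjusted p = 0.037, edgeR) and the HRT value was -0.55 (adjusted p = 0.068, edgeR). The LRT call was lost with soleus fitted alone (adjusted p = 0.067) and with all genes that had any count (0.065), and HRT was called with the replicate block (0.024) and with DESeq2 (0.0498). Leaving out 1 library at a time ended the LRT call of Ckmt2 in soleus in 8 of 12 cases and moved its adjusted p to between 0.019 and 0.12 in LRT and to between 0.023 and 0.21 in HRT.

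Gamt, which makes creatine, fell by 1.29 in LRT plantaris (adjusted p = 2.2e-04, edgeR) and by 0.86 in HRT plantaris (adjusted p = 0.024, edgeR), again with all 6 HI libraries below all controls in both lines. In LRT soleus it fell by 0.71 at an adjusted p of 0.0498 (edgeR), a call that 9 of 12 single-library omissions ended, as did soleus fitted alone (adjusted p = 0.0545), all genes with any count (0.079) and scaling by library totals alone (0.0542). The HRT soleus value was -0.42 (adjusted p = 0.26, edgeR). In HRT plantaris the call of Gamt was lost without HI replicate 1, HI replicate 4 or CTRL replicate 6, with adjusted p of 0.068, 0.074 and 0.058 (edgeR).

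Prkag3, a regulatory subunit of AMP-activated protein kinase that binds AMP, was called in soleus only. It rose in soleus by 1.53 in LRT (adjusted p = 0.012, edgeR) and by 1.61 in HRT (adjusted p = 0.0089, edgeR), with 4 and 5 of 6 HI libraries above every control. Its change was 0.08 in LRT plantaris (adjusted p = 0.91, edgeR) and 0.98 in HRT plantaris (adjusted p = 0.11, edgeR), where 2 and 5 of 6 HI libraries lay above every control and 3 and 1 below every control. The plantaris response minus the soleus response was -1.45 in LRT (adjusted p = 0.17, edgeR) and -0.63 in HRT (adjusted p = 0.71, edgeR), so a difference between the muscles was not shown. Without HI replicate 1 the soleus calls were lost, at an adjusted p of 0.058 for LRT and 0.077 for HRT (edgeR), and the LRT call was also lost without HI replicate 3 (adjusted p = 0.057).

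**Figure D3:**
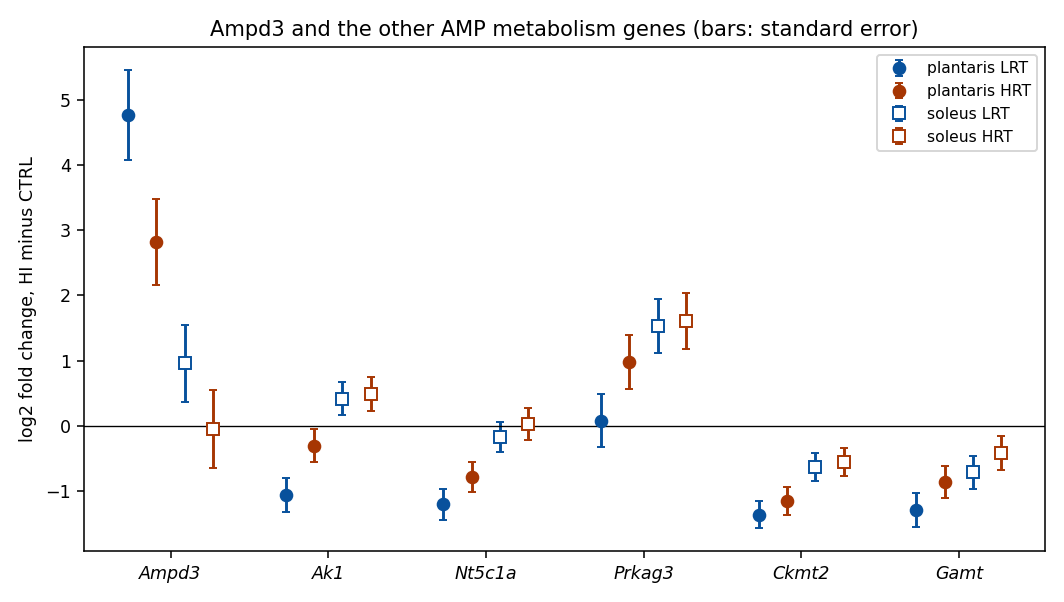
Log2 fold change of HI minus CTRL for Ampd3 and the 5 other paired genes of AMP metabolism, in plantaris (filled circles) and soleus (open squares) of LRT and HRT; bars are standard errors of the edgeR fit. Ampd3 stands at 4.76 and 2.82 in plantaris, where Ak1, Nt5c1a, Ckmt2 and Gamt lie below 0.

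Within the 12 HI plantaris libraries, the libraries with the highest Ampd3 tended to have the lowest values of the enzymes that fell. Over the deviations from the group means, r with Ampd3 was -0.88 for Ak1, -0.84 for Nt5c1a, -0.79 for Gamt, -0.72 for Ckmt2 and -0.54 for Prkag3. Over all 48 libraries r was -0.89 for Nt5c1a, -0.78 for Ak1, -0.74 for Gamt, -0.43 for Prkag3 and -0.27 for Ckmt2. Within the 12 HI soleus libraries it was -0.82 for Nt5c1a, -0.64 for Gamt, -0.44 for Ckmt2, -0.22 for Ak1 and 0.49 for Prkag3. The 7 paired fast fibre markers had a like r with Ampd3 in HI plantaris, between -0.86 (Casq1) and -0.66 (Pvalb and Atp2a1), so the values are not particular to the AMP genes. These correlations are descriptions over libraries that share groups and scaling.

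The genes with a symbol whose pattern was most like that of Ampd3 over the 48 libraries were Ssh2 (r = 0.96), Coro6 (0.92), Cds2 (0.91), Tcp11l2 (0.91), Gsr (0.90) and Thg1l (0.90). The median r of all genes tested was 0.04 and the 99th percentile was 0.78, and 4 genes without a symbol ranked among these. Ssh2, a phosphatase that acts on cofilin, had all 6 HI libraries above all controls in LRT plantaris, with medians of 130.6 CPM in HI and 58 CPM in CTRL. That pattern was shown by 4.69% of genes, and Ssh2 was itself picked for its likeness to Ampd3. In HRT plantaris 5 of 6 HI libraries lay above every control, with medians of 83.2 CPM in HI and 57.4 CPM in CTRL. Ssh2 was higher in soleus CTRL than in plantaris CTRL, at soleus medians of 127.9 CPM in LRT and 134.1 CPM in HRT.

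Likeness within the HI plantaris libraries, taken over deviations from the group means, named other genes. Psmd8 (r = 0.99), Gpank1 (0.99), Ubxn4 (0.98), Kctd20 (0.98), Ube4b (0.98) and Psmd11 (0.98) were the highest with a symbol. Among these ranked 10 genes without a symbol, so the named genes are a part of the most alike. Psmd8 and Psmd11 encode subunits of the regulatory particle of the proteasome, and Ube4b a ubiquitin ligase. Psmd8 had a median of 55.2 CPM in LRT CTRL plantaris and 61.7 CPM in LRT CTRL soleus, without the large muscle difference of Ampd3, and its r with Ampd3 over all 48 libraries was 0.69. The 99th percentile of r over all genes was 0.95 here, so that many genes ranked the HI plantaris rats as Ampd3 did.

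**Figure D4:**
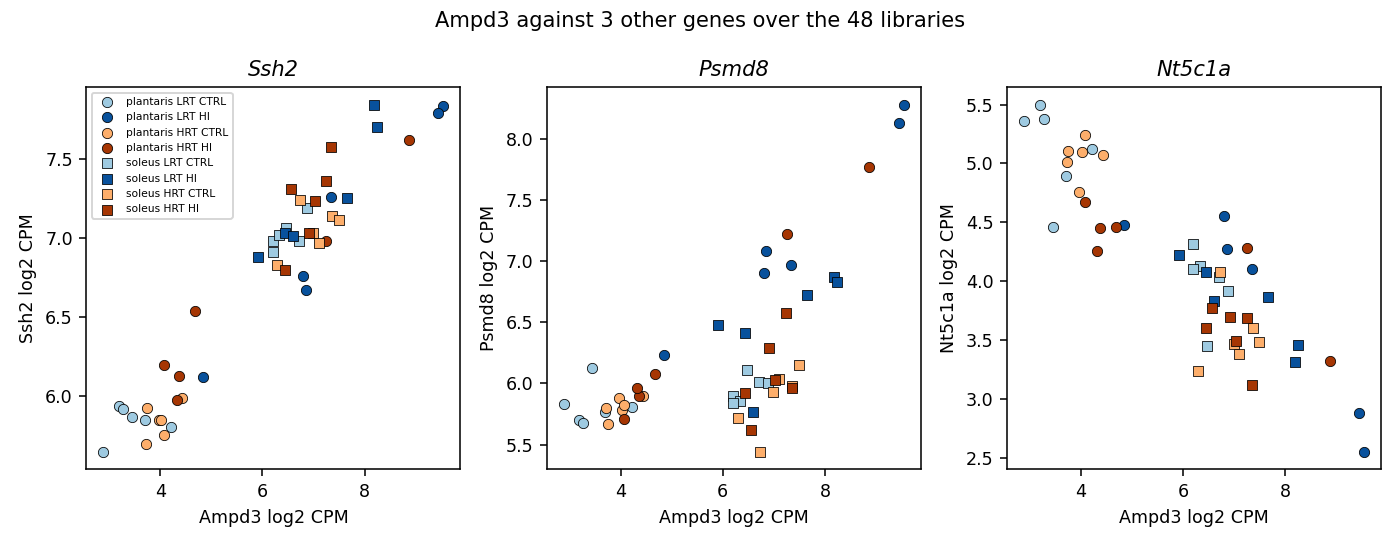
Log2 CPM of Ssh2, Psmd8 and Nt5c1a (vertical) against that of Ampd3 (horizontal) in the 48 libraries, coloured by line and treatment, with circles for plantaris and squares for soleus. Over all libraries r was 0.96 for Ssh2, 0.69 for Psmd8 and -0.89 for Nt5c1a.

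Markers of other cell types were read beside Ampd3, because its product is the AMP deaminase of red blood cells. The 6 of 16 red blood cell markers with a pairing, Alas2, Hba-a1, Hba-a2, Hbb, Slc4a1 and Bpgm, summed to between 427.9 and 1227.6 CPM in LRT CTRL plantaris and to between 212.5 and 594.3 CPM in LRT HI plantaris. In HRT plantaris they summed to between 363.4 and 520.8 CPM in CTRL and to between 340.8 and 3151.9 CPM in HI. Their medians in plantaris were 488.4 CPM in CTRL and 355.0 CPM in HI for LRT, and 429.5 and 459.9 CPM for HRT. In soleus the medians were 725.7 CPM in CTRL and 989.5 CPM in HI for LRT, and 330.6 and 1192.5 CPM for HRT, with a highest HRT HI value of 10591.7 CPM. In the 12 HI plantaris libraries r with Ampd3 was between -0.26 and -0.41 for the 5 markers other than Bpgm, and -0.92 for Bpgm.

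Of the denervation and junction markers 4 of 10 were paired, Musk, Myog, Runx1 and Gadd45a. They summed to between 26.8 and 55.9 CPM in LRT CTRL plantaris and to between 77 and 527.3 CPM in LRT HI plantaris, and in HRT plantaris to between 22.6 and 35 CPM in CTRL and between 22.6 and 279.7 CPM in HI. In the HI plantaris libraries r with Ampd3 was 0.93 for Runx1, 0.88 for Gadd45a, 0.85 for Myog and 0.52 for Musk. The 99th percentile of r over all genes there was 0.95. As for the AMP genes, markers of every list were paired only through tables of genes that differed in these samples. Their direction is therefore not independent evidence. Of 13 leukocyte markers only S100a9 was paired, with r of -0.19. Its median was higher in HI than in CTRL in each comparison, at 1.22 and 0.898 CPM in LRT plantaris, 2.49 and 1.02 CPM in HRT plantaris, 1.98 and 0.661 CPM in LRT soleus and 3.44 and 0.519 CPM in HRT soleus, with overlapping ranges. The summed fast fibre markers had medians of 32473.2 CPM in LRT CTRL plantaris and 24134.3 CPM in HRT CTRL plantaris, and of 15590.6 CPM and 18172.2 CPM in HI. Atp2a1 in that sum had a higher median in HRT HI (2405.6 CPM) than in HRT CTRL (2114.1 CPM). The slow marker Casq2 had medians of 57.3 CPM in LRT CTRL and 18.4 CPM in LRT HI plantaris, and of 53.9 CPM and 24.9 CPM in HRT, with r of -0.76 with Ampd3 in HI plantaris. The part of these cells and fibres in the values of Ampd3 was not tested.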

How the data were processed

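RNA sequencing libraries of plantaris and soleus from 24 rats were grouped by the labels into 8 groups of 6, and none was left out. The study's methods give 6 rats a group. According to the methods, the authors quantified reads with Salmon 0.9.1 against Ensembl cDNA and non-coding RNA of Rnor_6.0, with length normalization, and summed transcripts per gene with tximport. The estimated counts per gene deposited by the authors are not normalized between libraries, and 66.0% of values were not whole. They were rounded. Totals were 26.8 M to 36.4 M (median 30.4 M), RIN was 7.8 to 8.6, and precision covers counting error only for low genes. The strand setting and genome position were not used here.

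Genes were filtered with filterByExpr, scaled by TMM and fitted with edgeR 4.0.16 (quasi-likelihood, 8 groups and RIN, all 48 libraries) in R 4.3.3, with Benjamini-Hochberg adjustment over 16960 genes. CPM uses TMM sizes, and log2 CPM a prior count of 2. Alternatives used limma 3.58.1, DESeq2 1.42.0, other scalings, filters and blocks, and omission of each library. Permutation tests used scipy 1.17.1 with 100000 resamples or exact enumeration. The scripts were tested on simulated data.

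Symbols came from the study's tables of differing genes, which pair 1149 of 31998 identifiers, and no sequence of Ampd3 was printed. The genes named are Ampd3, every paired and tested gene of the AMP lists, the 6 with a symbol most like Ampd3 over 48 libraries, and the 6 most like it in HI plantaris, plus markers where a value turns on them. Ampd3 and all lists were chosen with earlier results of these data known.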

Additional observations from a re-analysis of the deposited data

Results flagged for a closer look

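The plantaris response of Ak1 minus its soleus response in LRT was -1.48 on the log2 scale (adjusted p = 0.033, edgeR), from -1.06 in plantaris and 0.42 in soleus. In HRT the same difference was -0.79 (adjusted p = 0.38, edgeR). For these differences, as for those of Prkag3, only the fit that does not pair the muscles of a rat is given here. Among the 48 groups checked for Ampd3 and the 5 other AMP genes, a library stood far from the others of its group for 2 genes, judged on log2 CPM. Nt5c1a was lowest in plantaris HRT HI replicate 4, the library with the highest Ampd3 of its group, at 9.94 CPM against 19.1 to 25.4 CPM in the others, a gap of 0.70 of the range on the log2 CPM scale. Ckmt2 was lowest in soleus HRT CTRL replicate 1, at 913.2 CPM against 1461.5 to 1895.8 CPM, a gap of 0.64 of the range on the same scale. Chance alone sets apart about 1 in 20 groups in this way, and on the log2 CPM scale no Ampd3 library was set apart.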

How the results depend on the processing

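The values of Ampd3 kept their direction under every alternative scaling, tool, filter and block run, except in soleus HRT, where HI minus CTRL lay between -0.17 and 0.03. The remaining HI minus CTRL values lay between 4.01 and 5.07 in plantaris LRT, 1.59 and 3.03 in plantaris HRT, and 0.71 and 1.11 in soleus LRT, with limma-voom giving 1.59 in plantaris HRT. Leaving out each library gave 4.26 to 4.99 in plantaris LRT, 1.55 to 3.18 in plantaris HRT, 0.72 to 1.14 in soleus LRT and -0.15 to 0.06 in soleus HRT. It gave 1.47 to 3.21 for DELTA in plantaris, 0.76 to 1.21 for DELTA in soleus, and 3.29 to 4.04 (LRT) and 1.64 to 3.33 (HRT) for the plantaris rise minus the soleus rise. For plantaris minus soleus in HI it gave 0.26 to 1.03 in LRT and -1.39 to 0.36 in HRT. For LRT minus HRT it gave 0.96 to 2.72 in plantaris HI, 0.23 to 0.65 in soleus HI, -0.69 to -0.40 in plantaris CTRL and -0.66 to -0.44 in soleus CTRL. The plantaris HI value of 2.72 was that without HRT HI replicate 4, and the cause was not tested. Under the other alternatives the value was 1.90 to 2.42 for DELTA in plantaris and 1.40 to 1.88 for LRT minus HRT in plantaris HI.

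The relation of same-numbered libraries was 0.79 (LRT) and 0.76 (HRT) in HI and 0.83 (LRT) and 0.73 (HRT) in CTRL within a line, and 0.64 in HI without the 2 farthest numbers, none of which passed by Pearson's r. Same-numbered libraries correlated with a mean r of 0.23 over all genes, above 0.1 for 22 of 24 numbers and best with their own number for 22 of 24, with the lowest at -0.05, so the numbers are a hint of pairing and not the design. With the replicate block, HI minus CTRL was 4.48 in plantaris LRT and 2.45 in plantaris HRT, and no call of Ampd3 changed. With the rat as block, the plantaris rise minus the soleus rise was 3.27 in LRT and 1.49 in HRT.

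Of 420 alternative values of the 5 other AMP genes, 32 lost and 5 gained a call and 0 reversed. Genes called numbered 3019 with library totals alone against 1859 in plantaris HRT. With soleus fitted alone they numbered 1493 against 2364 in LRT and 1207 against 2744 in HRT. Leaving out 1 library brought the lowest counts to 933 in plantaris HRT, 1261 in soleus LRT and 1376 in soleus HRT. Library totals alone moved the median of all genes to 0.25 in plantaris LRT, 0.17 in plantaris HRT and 0.15 in soleus LRT, so changes of Ampd3 there are relative to it.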
